A study of Saccharomyces cerevisiae with 8 samples.

Results

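The genes described here encode the core proteins of the small nucleolar ribonucleoproteins (snoRNPs) of budding yeast, Saccharomyces cerevisiae. They were chosen by name: NOP1, NOP56, NOP58 and SNU13 for the box C/D particles, and CBF5, NHP2, GAR1 and NOP10 for the box H/ACA particles. All 8 are among the 6034 coding targets of the abundance tables, and 7 were measured. NOP10 was listed at 0 in all 8 libraries. Its target is 177 bases long with an effective length of 10.5 bases, so nothing can be said of its level.

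Poly-A RNA was sequenced from strain W303a under a 2 by 2 design of temperature and 5ph-IAA treatment, with 2 libraries in each of 4 groups. The groups were 39 °C with 5ph-IAA, 30 °C with 5ph-IAA, 39 °C without it and 30 °C without it, and all came from cultures grown at 30 °C in rich medium with 2% dextrose and then kept for 5 min at either temperature. For the treated groups the labels describe 30 min with β-estradiol (1 µM) and 5ph-IAA (5 µM) to deplete Ifh1, a coactivator of ribosomal protein genes, whereas the design text of the series names anchor away. 5ph-IAA is an auxin analogue that brings about degradation of proteins carrying an auxin-dependent degron. The sources used here do not say what the untreated cells received or whether they carried the same tagged strain. In the comparisons below "5ph-IAA" stands for the whole treatment. The parts of β-estradiol, of 5ph-IAA and of any strain difference cannot be told apart. Such a depletion acts on the protein, so IFH1 mRNA is no check of the label; it stood at 13.7 and 14.3 TPM at 39 °C with 5ph-IAA, 26.6 and 24.0 TPM at 30 °C with 5ph-IAA, 10.1 and 9.06 TPM at 39 °C without it, and 24.1 and 22.6 TPM at 30 °C without it.

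snoRNPs guide the chemical modification of ribosomal RNA in the nucleolus. A box C/D particle carries Snu13, Nop56, Nop58 and the methyltransferase Nop1 on a guide RNA and adds methyl groups to the ribose, while a box H/ACA particle carries Nhp2, Nop10, Gar1 and the pseudouridine synthase Cbf5 and turns uridine into pseudouridine. Some particles, such as those of U3 and snR30, take part in cleaving the precursor RNA instead, and Snu13 is also a protein of the U4/U6.U5 tri-snRNP of the spliceosome.

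Promoters of yeast genes for ribosome assembly often carry a pair of sequence elements, PAC and RRPE, which are bound by the repressors Dot6 and Tod6 (PAC) and Stb3 (RRPE). The letters GATGAG for PAC and AAAAATTT for RRPE were searched on both strands in the 300 bases before each start codon of the R64 genome. Each of the 8 snoRNP core promoters held both. Over 5993 promoters of the same length, PAC letters stood in 19.1%, RRPE letters in 15.2% and both in 5.61%. Because AAAAATTT and its reverse complement share letters, RRPE matches on opposite strands can overlap, as in NOP1, NHP2 and GAR1.

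The stretches that hold the PAC letters and the nearest RRPE letters are printed to show how close together these elements lie, 5′ to 3′ on the strand of the gene, from RefSeq's R64 assembly. Capitals mark PAC (on either strand) and RRPE letters. For the box C/D genes they are chrIV:427130-427175 (plus strand) for NOP1, chrXII:545946-545985 (plus strand) for NOP56, chrXV:898467-898504 (minus strand) for NOP58 and chrV:101740-101778 (plus strand) for SNU13. For the box H/ACA genes they are chrXII:505979-506018 (plus strand) for CBF5, chrIV:87380-87425 (plus strand) for NHP2, chrVIII:283408-283444 (minus strand) for GAR1 and chrVIII:241524-241566 (plus strand) for NOP10.
NOP1: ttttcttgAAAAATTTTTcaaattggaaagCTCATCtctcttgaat
NOP56: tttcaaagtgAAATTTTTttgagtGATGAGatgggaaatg
NOP58: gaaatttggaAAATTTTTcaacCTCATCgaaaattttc
SNU13: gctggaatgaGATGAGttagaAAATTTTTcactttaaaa
CBF5: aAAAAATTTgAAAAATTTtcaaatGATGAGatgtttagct
NHP2: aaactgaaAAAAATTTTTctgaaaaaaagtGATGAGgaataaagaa
GAR1: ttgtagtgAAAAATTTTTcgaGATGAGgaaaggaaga
NOP10: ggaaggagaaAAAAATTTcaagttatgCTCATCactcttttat
The gap between the PAC letters and the nearest RRPE letters was 3 bases in GAR1, 4 in NOP58, 5 in SNU13, 6 in NOP56 and CBF5, 9 in NOP10 and 12 in NOP1 and NHP2. The nearest RRPE lay farther from the start codon than PAC in 7 of the 8 promoters, and SNU13 had the opposite order. Counted from the start codon, the first base of PAC lay at positions −131 to −102 in 6 genes, at −193 in SNU13 and at −204 in NOP1. None of the 8 windows held the Rap1 consensus (0.4% of all promoters, and 4 of 137 ribosomal protein promoters), the heat shock element (0.868%) or the stress response element letters AGGGG (22.2%), searched on both strands. A match or its absence describes letters in a window and says nothing of binding.

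**Figure D1:**
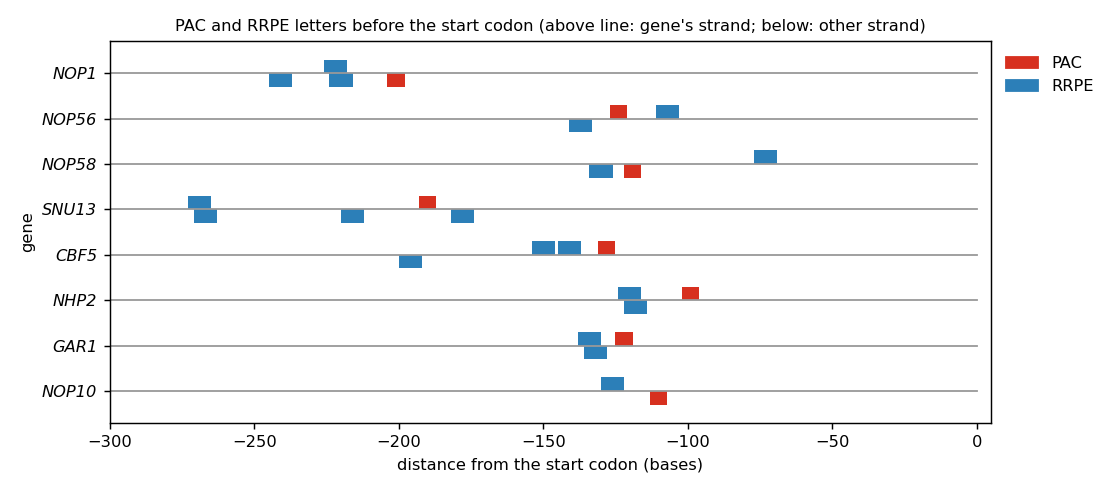
Positions of PAC (red) and RRPE (blue) letters in the 300 bases before the start codon of the 8 snoRNP core genes; the horizontal axis is the distance from the start codon in bases, and blocks above or below each line are matches on the strand of the gene or on the other strand. Each gene has PAC letters with RRPE letters 3 to 12 bases away.

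Library totals were 10118860 and 9298953 estimated counts at 39 °C with 5ph-IAA, 7717767 and 10007034 at 30 °C with 5ph-IAA, 21025464 and 19974567 at 39 °C without it, and 8917417 and 9068802 at 30 °C without it. The 7 measured genes had 511 to 13066 counts per library, all of them within 0.001 of a whole number. Each lies in a single coding exon with no overlapping gene in the R64 annotation. Ribosomal protein genes held 10.3% of TPM (a length-corrected share of all transcripts) in both libraries at 39 °C with 5ph-IAA, 17.1% and 17.3% at 30 °C with 5ph-IAA, 19.3% and 19.8% at 39 °C without it, and 39.7% and 40.6% at 30 °C without it. All values below are therefore shares of libraries whose composition differed, and in these bulk samples fewer cells and less RNA per cell cannot be told apart. As a check of the a mating type of W303a, the a-cell receptor gene STE2 had 73.6 to 495 TPM and the alpha-cell receptor gene STE3 had 1.44 to 4.06 TPM over the libraries. Of the other markers, the a-cell genes STE6 and BAR1 had 10.3 to 82.3 and 17.2 to 125 TPM. The alpha-cell genes MF(ALPHA)1, MF(ALPHA)2 and SAG1 had 0 to 2.55, 10.6 to 25.6 and 12.6 to 24.7 TPM. Levels of the 2 kinds of marker overlapped, as STE6 was below both SAG1 and MF(ALPHA)2 at 39 °C without 5ph-IAA. With TMM scaling the a-cell genes moved in the same direction as the snoRNP core genes in every comparison (3 of 3 tested, with MFA1 and MFA2 listed at 0; in TPM they too were higher with 5ph-IAA at 30 °C), and their part in the results was not tested.

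After 5 min at 39 °C without 5ph-IAA, all 7 measured snoRNP core mRNAs were lower than at 30 °C, with levels between 8.21% of the 30 °C level (CBF5) and 38.4% (SNU13). Changes were tested on counts in one fit of all 8 libraries (edgeR quasi-likelihood test, TMM scaling, Benjamini-Hochberg adjustment over 5734 genes, threshold 0.05). The 7 calls stand against a background of 39.7% of all tested genes called lower in the same comparison. The median log2 fold change was −3.14 over the 7 genes and 0.04 over all tested genes. The labels number the 2 libraries of a group as biological replicates without speaking of separate cultures, so the spread behind each p-value is that of these samples and may be technical.

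NOP1, which encodes fibrillarin, the methyltransferase of box C/D particles, had 98.3 and 94.9 TPM at 39 °C, against 1032 and 993 TPM at 30 °C. NOP56, one of the paired scaffold proteins, had 87.3 and 82.9 TPM at 39 °C, against 544 and 524 TPM at 30 °C. NOP58, its partner on the guide RNA, had 55.3 and 55.0 TPM at 39 °C, against 443 and 443 TPM at 30 °C. In each of these genes both heated libraries lay far below both unheated ones. SNU13, whose protein binds the kink-turn of the RNA and starts particle assembly, had 407 and 419 TPM at 39 °C, against 1080 and 1071 TPM at 30 °C. Its libraries did not overlap either, but its level at 39 °C was the highest of the box C/D genes. The log2 fold changes were −3.52 ± 0.05 for NOP1, −2.78 ± 0.04 for NOP56, −3.14 ± 0.05 for NOP58 and −1.51 ± 0.06 for SNU13 (± SE, edgeR adjusted p between 2.28e-16 and 2.51e-11).

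Among the box H/ACA genes, CBF5 (the pseudouridine synthase) had 43.2 and 42.5 TPM at 39 °C, against 531 and 515 TPM at 30 °C. NHP2, whose protein belongs to the same RNA-binding family as Snu13, had 63.9 and 73.4 TPM at 39 °C, against 834 and 800.0 TPM at 30 °C. GAR1, whose protein contacts the synthase, had 131 and 123 TPM at 39 °C, against 759 and 717 TPM at 30 °C. The 39 °C libraries were below the 30 °C libraries in all 3 genes. Log2 fold changes were −3.74 ± 0.05 for CBF5, −3.70 ± 0.07 for NHP2 and −2.67 ± 0.05 for GAR1 (± SE, edgeR adjusted p between 1.84e-16 and 6.9e-15). Counted from the lowest of 5734 log2 fold changes, CBF5 was at rank 100, NHP2 at 104, NOP1 at 124, NOP58 at 168, NOP56 at 217, GAR1 at 230 and SNU13 at 568.

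**Figure D2:**
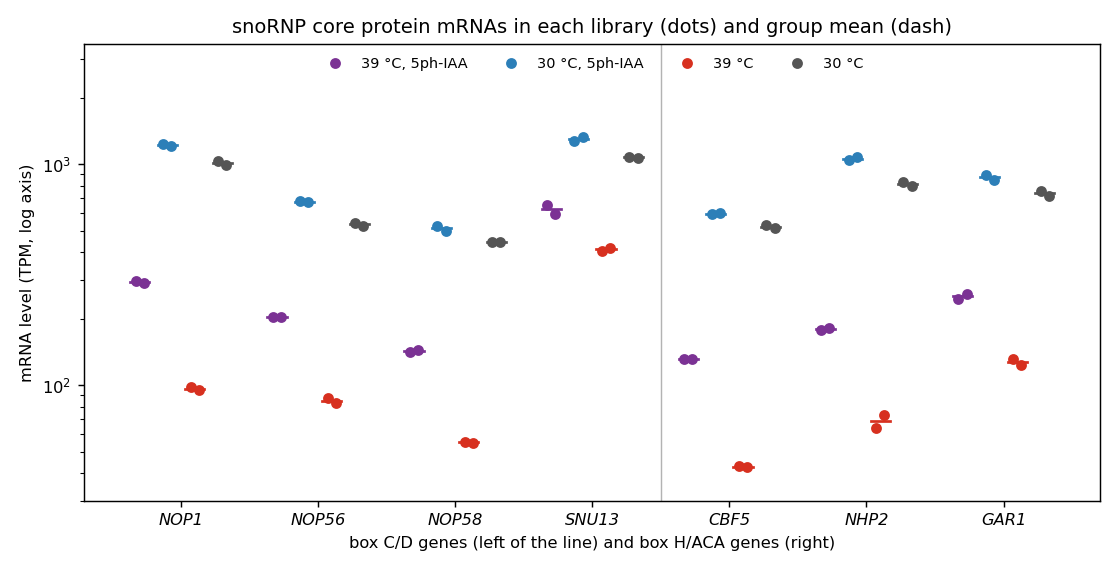
TPM (log axis) of the 7 measured snoRNP core genes in each of the 8 libraries (dots) with the mean of each group of 2 (dash), box C/D genes left and box H/ACA genes right of the line. In every gene the 39 °C libraries without 5ph-IAA are lowest, from 42.5 TPM in CBF5 to 419 TPM in SNU13, and the 30 °C libraries with 5ph-IAA are highest in TPM.

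With 5ph-IAA, the same 7 genes were again lower at 39 °C than at 30 °C, with levels between 17.1% (NHP2) and 48.2% (SNU13) of the 30 °C level; 38.3% of all tested genes were called lower. NOP1 had 295 and 289 TPM at 39 °C with 5ph-IAA, against 1232 and 1211 TPM at 30 °C with 5ph-IAA. SNU13 had 656 and 597 TPM at 39 °C with 5ph-IAA, against 1270 and 1329 TPM at 30 °C with 5ph-IAA. CBF5 had 132 and 131 TPM at 39 °C with 5ph-IAA, against 596 and 599.9 TPM at 30 °C with 5ph-IAA. The libraries of the 2 temperatures were apart in each gene, and SNU13 again kept the largest share of its level. NHP2 had 179 and 181 TPM at 39 °C with 5ph-IAA, against 1040 and 1073 TPM at 30 °C with 5ph-IAA. In the remaining genes the lower library of the 30 °C pair with 5ph-IAA was also above both libraries of the 39 °C pair, which had 204 and 204 TPM of NOP56, 141 and 144 TPM of NOP58 and 247 and 258 TPM of GAR1, against 683 and 673 TPM of NOP56, 527 and 501 TPM of NOP58 and 895 and 849 TPM of GAR1. Log2 fold changes ran from −2.33 ± 0.07 for NHP2 to −0.83 ± 0.06 for SNU13, with a median of −1.62 (± SE, edgeR adjusted p between 9.79e-14 and 3.8e-08), against a median of 0.01 over all tested genes.

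Set side by side, the heat shock change of every measured core gene was smaller on the log2 scale with 5ph-IAA than without it. For the summed TPM of the 7 genes the change was not smaller, at −4410 with 5ph-IAA and −4254 without it. By gene, the mean TPM of CBF5 and NOP58 fell by less with 5ph-IAA, and that of the others by more. As a percentage of the TPM outside ribosomal protein genes, the sum changed by −0.5495 points with 5ph-IAA and −0.7489 points without it, which is smaller with the treatment. The interaction, obtained by subtracting the untreated heat shock change from the treated one, was above 0 and past the threshold in 7 of 7 genes, against 26% of all tested genes in that direction. It was 1.78 ± 0.06 for CBF5, 1.68 ± 0.06 for NOP1, 1.51 ± 0.06 for NOP58, 1.38 ± 0.10 for NHP2, 1.27 ± 0.06 for NOP56, 1.11 ± 0.07 for GAR1 and 0.68 ± 0.09 for SNU13 on the log2 scale (± SE, edgeR adjusted p between 2.45e-10 and 2.43e-05). The medians were 1.38 over the 7 genes and −0.003 over all tested genes. Under other scalings the median of all tested genes moved by up to −0.36 in this comparison, and the 7 values stayed above 0 and past the threshold. The comparisons share libraries, so none of these values is independent of the others.

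**Figure D3:**
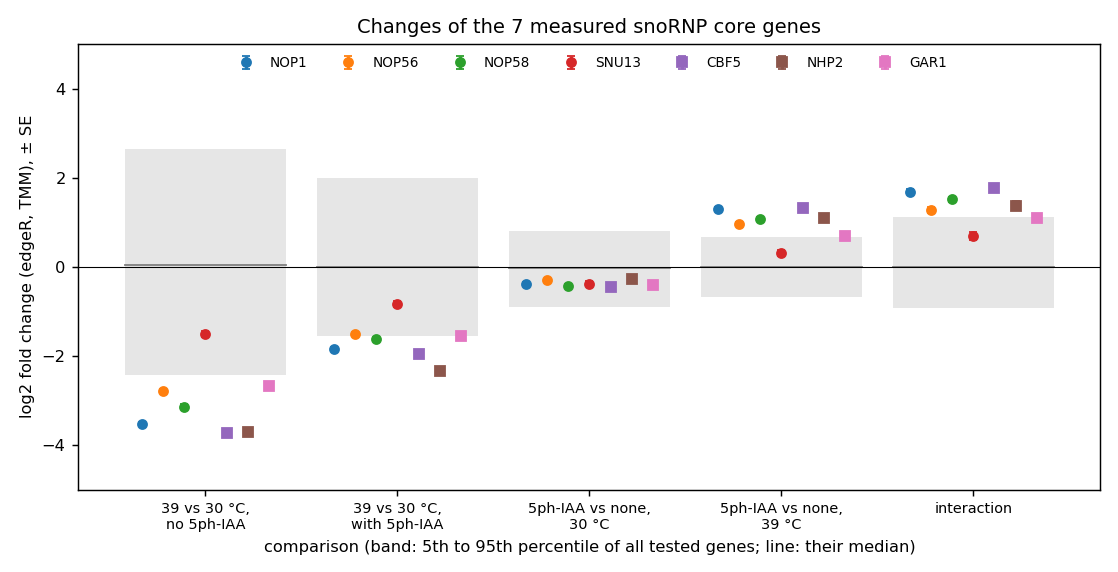
Log2 fold changes (edgeR, TMM scaling, ± SE, smaller than most symbols) of the 7 measured genes in the 5 comparisons, with circles for box C/D and squares for box H/ACA genes; the grey band spans the 5th to 95th percentile of all tested genes and the line is their median. The 7 genes lie between −3.74 and −1.51 on heat shock without 5ph-IAA and between 0.68 and 1.78 for the interaction; the small negative values for 5ph-IAA at 30 °C turn positive when TPM is tested in place of counts.

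At 39 °C, all 7 genes were higher with 5ph-IAA than without it, against 22.5% of all tested genes called higher. In TPM the level with 5ph-IAA was 152% of that without it for SNU13, 199% for GAR1, 240% for NOP56, 258% for NOP58, 262% for NHP2, 303% for NOP1 and 307% for CBF5. The 2 pairs of libraries did not overlap in any of them. Log2 fold changes on counts were 0.31 ± 0.06 for SNU13, 0.70 ± 0.05 for GAR1, 0.97 ± 0.04 for NOP56, 1.08 ± 0.05 for NOP58, 1.10 ± 0.08 for NHP2, 1.30 ± 0.04 for NOP1 and 1.32 ± 0.05 for CBF5 (± SE, edgeR adjusted p between 1.11e-10 and 0.00136). The median was 1.08, against −0.003 over all tested genes.

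At 30 °C the effect of 5ph-IAA was small, and its direction depended on what the counts were scaled to. With TMM scaling 7 of 7 genes were called lower, against 28.1% of all tested genes, with log2 fold changes from −0.45 ± 0.04 for CBF5 to −0.28 ± 0.06 for NHP2 (± SE, edgeR adjusted p between 7.66e-07 and 0.00145). In TPM the level with 5ph-IAA was higher in all 7, from 114% of the untreated level in CBF5 to 129% in NHP2, and limma on log2(TPM + 1) called all 7 higher (0.20 for CBF5 to 0.37 for NHP2), as it did 84.8% of all tested genes. With library totals alone the values ran from −0.06 to 0.12 and 1 gene, NOP56, was called, as higher, against 69.1% of all tested genes called higher. The same change of scale moved all genes: the median of all tested genes was −0.02 with TMM, 0.38 with library totals and 0.61 in log2(TPM + 1). The 7 genes were below that median in each of these settings, and their own median was 0.34 to 0.36 below it on the log2 scale. The ribosomal protein genes had a median log2 fold change of −2.01 here with TMM scaling. Of the TPM outside them, the 7 core genes took 0.753% with 5ph-IAA (0.753% and 0.754%) and 0.859% without it (0.866% and 0.853%).

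Summed over the 7 genes, core mRNA made up 1853 and 1805 TPM at 39 °C with 5ph-IAA, 6242 and 6235 TPM at 30 °C with 5ph-IAA, 886 and 891 TPM at 39 °C without it and 5221 and 5063 TPM at 30 °C without it. Heat shock also changed how that sum was made up. SNU13 alone contributed 46.5% ± 0.784 of it at 39 °C and 20.9% ± 0.333 at 30 °C without 5ph-IAA (SD, n = 2). With 5ph-IAA it contributed 34.2% ± 1.64 at 39 °C and 20.8% ± 0.688 at 30 °C (SD, n = 2). NOP1 took 10.9% ± 0.307 at 39 °C and 19.7% ± 0.0968 at 30 °C without 5ph-IAA, CBF5 took 4.83% ± 0.0724 and 10.2% ± 0.00117, and NHP2 took 7.73% ± 0.733 and 15.9% ± 0.126 in the same order of groups. The share of GAR1 was 14.3% ± 0.712 at 39 °C and 14.3% ± 0.256 at 30 °C without 5ph-IAA, and its libraries overlapped. In an exact permutation test of 2 against 2 libraries p cannot go below 0.333, which is the value for each of the non-overlapping ratios below.

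**Figure D4:**
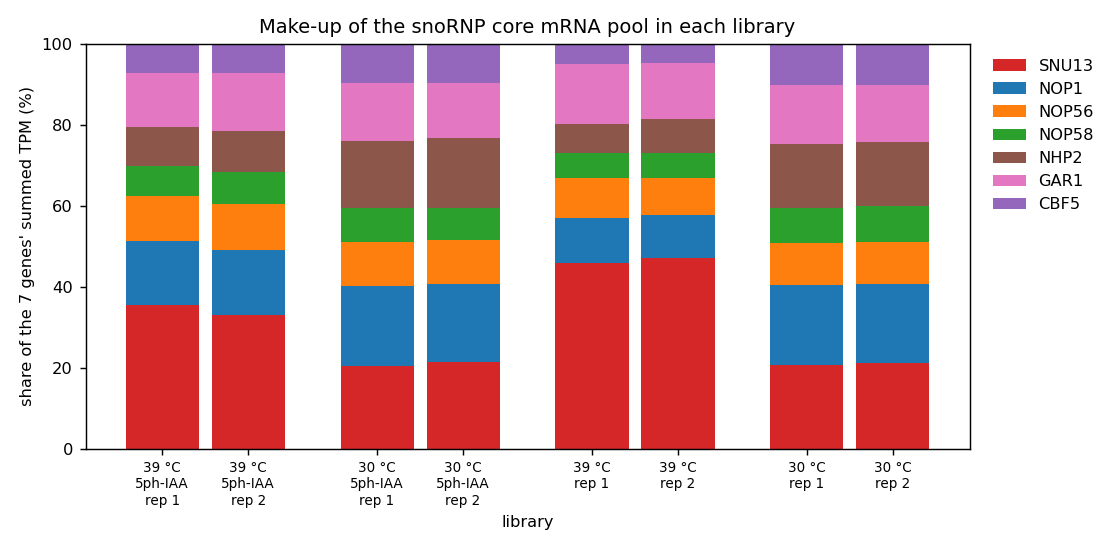
Share (%) of the summed TPM of the 7 measured genes contributed by each gene, stacked, in each of the 8 libraries. SNU13 takes 45.9% and 47.0% in the 39 °C libraries without 5ph-IAA, 35.4% and 33.1% in the 39 °C libraries with 5ph-IAA, and 20.3% to 21.3% in the 4 libraries at 30 °C.

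The ratio of box C/D to box H/ACA mRNA (4 genes over 3) was 2.72 ± 0.00719 at 39 °C and 1.48 ± 0.0233 at 30 °C without 5ph-IAA, and 2.24 ± 0.117 at 39 °C and 1.47 ± 0.0042 at 30 °C with it (SD, n = 2). Without 5ph-IAA, SNU13 alone made up 413 of the 650 TPM of box C/D mRNA at 39 °C and 1075 of 3065 TPM at 30 °C. This ratio therefore does not describe a shift shared by the box C/D genes. The level of SNU13 over that of NOP1 was 4.28 ± 0.193 at 39 °C and 1.06 ± 0.0222 at 30 °C without 5ph-IAA, and 2.14 ± 0.110 at 39 °C and 1.06 ± 0.0474 at 30 °C with it. In both ratios the temperatures did not overlap (exact permutation test, two-sided, p = 0.333), while at 30 °C the libraries with and without 5ph-IAA overlapped (exact p = 1). Within the pair of related RNA-binding proteins, SNU13 over NHP2 was 6.04 ± 0.471 at 39 °C and 1.32 ± 0.0314 at 30 °C without 5ph-IAA. The scaffold pair kept closer together: NOP56 over NOP58 was 1.54 ± 0.0512 at 39 °C and 1.21 ± 0.0323 at 30 °C without 5ph-IAA, and the enzyme pair NOP1 over CBF5 was 2.25 ± 0.0299 at 39 °C and 1.94 ± 0.00976 at 30 °C.

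The order of the levels in TPM changed with heat. At 39 °C without 5ph-IAA it was SNU13, GAR1, NOP1, NOP56, NHP2, NOP58 and CBF5, and no neighbours overlapped. At 30 °C without 5ph-IAA it was SNU13, NOP1, NHP2, GAR1, NOP56, CBF5 and NOP58, and NOP56 and CBF5 could not be separated by their 2 libraries. With 5ph-IAA the order at 30 °C was the same as without it, and the order at 39 °C was SNU13, NOP1, GAR1, NOP56, NHP2, NOP58 and CBF5. SNU13 stood at the top and either CBF5 or NOP58 at the bottom of all 4 orders, with the highest level 9.63 ± 0.307 times the lowest at 39 °C and 2.43 ± 0.0153 times at 30 °C without 5ph-IAA. SNU13 has the shortest measured target of the 7, 381 bases with an effective length of 182, and TPM divides by that length.

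Likeness of pattern was measured as the root mean square difference in log2 CPM over the 8 libraries, each gene being centred on the 30 °C libraries without 5ph-IAA. Between core genes, NOP56 and GAR1 (0.11), CBF5 and NHP2 (0.14) and NOP1 and CBF5 (0.15) were closest, so box C/D and box H/ACA genes did not separate into 2 groups. SNU13 was the farthest core gene from each of the other 6, and its own nearest neighbour was GAR1 at 0.70. Among 5357 genes outside the set with at least 100 counts a library on average, those closest to the mean of the core genes were ELP2 (0.04, a subunit of the tRNA-modifying Elongator complex), SCW11 (0.05, a cell wall protein), TRM8 (0.07, a tRNA methyltransferase subunit), RLP7 (0.08, a large subunit assembly factor) and NMD3 (0.09, the export adaptor of the large subunit). Of the core genes, NOP58 lay 0.075 from that mean. The other core genes lay from 0.166 (NOP56) to 0.857 (SNU13) away, farther than any of these outside genes, so the mean is not a pattern that each core gene holds. These values describe patterns over the same 8 libraries.

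Other genes of the pathway were placed in lists for comparison. Of the enzymes that modify ribosomal RNA without a guide, 13 of 13 fell on heat shock without 5ph-IAA with a median log2 fold change of −3.32, and 13 of 13 fell with it with a median of −1.91, against 39.7% and 38.3% of all tested genes called lower. SPB1, a methyltransferase of the large subunit RNA, fell by 4.85 ± 0.07, and KRE33, the acetyltransferase of the small subunit RNA, fell by 4.30 ± 0.09 on the log2 scale without 5ph-IAA (edgeR adjusted p = 3.63e-16 and 1.86e-14). Of these enzymes 12 of 13 had an interaction called above 0 with TMM scaling, against 26% of all tested genes. With 5ph-IAA at 30 °C and TMM scaling 11 of 13 were called lower, against 28.1% of all tested genes, BMT6 at −0.64 ± 0.09 and KRE33 at −0.54 ± 0.07, but in log2(TPM + 1) both of these were above 0 and 9 of 13 were called higher, against 84.8% of all tested genes.

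Of the factors that assemble snoRNPs, 8 of 9 fell and 1 rose on heat shock without 5ph-IAA, with a median of −1.29, against 39.7% of all tested genes called lower. SHQ1, the chaperone of Cbf5, fell by 3.25 ± 0.09, and BCD1, which is needed for box C/D snoRNAs to accumulate, fell by 2.52 ± 0.10 (edgeR adjusted p = 3.63e-13 and 1.08e-11). The gene that rose was PIH1 (0.28 ± 0.08, adjusted p = 0.00802), a subunit of the R2TP chaperone complex, named here after its value was seen; it was not called with DESeq2 or with either form of library totals. NAF1, whose protein holds the place of Gar1 in immature H/ACA particles, had −0.74 ± 0.07 with 5ph-IAA and −0.74 ± 0.06 without it, and its interaction was −0.00 ± 0.09 (edgeR adjusted p = 0.987). Over the list, 4 of 9 interactions were called above 0 with TMM scaling, against 26% of all tested genes. With 5ph-IAA at 30 °C 4 of 9 were called lower with TMM scaling, against 28.1% of all tested genes. In log2(TPM + 1) 8 of 9 were called higher, a share near the 84.8% of all tested genes.

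For the genes that trim the ends of snoRNAs or cap them, 8 of 10 fell on heat shock without 5ph-IAA and 1 rose, with a median of −1.41, against 39.7% of all tested genes called lower. RNT1, the double-strand RNase that opens many snoRNA precursors, fell by 2.88 ± 0.07, and RRP6, the nuclear exosome nuclease, fell by 2.77 ± 0.06 (edgeR adjusted p = 1.27e-13 and 4.93e-14). PCF11, a transcription termination factor picked out after its value was seen, rose by 0.68 ± 0.07 (adjusted p = 3.25e-07). In this list 7 interactions were called above 0 and 2 below with TMM scaling, against 26% of all tested genes called above 0. With 5ph-IAA at 30 °C and TMM scaling 6 of 10 were called lower, LHP1 at −0.47 ± 0.06 and RAT1 at −0.44 ± 0.06 among them, and 2 higher, against 28.1% of all tested genes called lower. In log2(TPM + 1) all 10 were called higher, as were 84.8% of all tested genes.

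The tri-snRNP proteins are the other partners of Snu13. On heat shock without 5ph-IAA 7 of 12 fell and 2 rose, with a median of −0.54, against 39.7% of all tested genes called lower and a median of 0.04 over them. PRP31, whose protein binds the U4 RNA together with Snu13, fell by 1.05 ± 0.08, and SNU114, a GTPase of U5, fell by 0.91 ± 0.08 (edgeR adjusted p = 1.18e-08 and 8.32e-08). Those that rose, named after their values were seen, were PRP4 (0.43 ± 0.09) and PRP8 (0.34 ± 0.06), neither of them called with library totals without the ribosomal protein genes. For PRP31 the interaction was 0.05 ± 0.11 (adjusted p = 0.718), and 2 of 12 genes had an interaction called above 0 and none was called below, a smaller share than the 26% of all tested genes. The log2 fold change of SNU13 on heat shock without 5ph-IAA, −1.51, was below that of every gene of the tri-snRNP list. It lay between the medians of that list and of the snoRNP core. So did the medians of the assembly factors (−1.29), the end and cap processing genes (−1.41) and the intron host genes (−1.55). With 5ph-IAA at 30 °C, BRR2 and SNU66 were called lower with TMM scaling (−0.37 ± 0.07 and −0.33 ± 0.11), among 4 of 12, a share near the 28.1% of all tested genes, and both were above 0 with library totals and in log2(TPM + 1).

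The genes of the ribosomal proteins that belong to the same L7Ae family as Snu13 and Nhp2 are RPL8A, RPL8B, RPL30 and RPS12. All 4 were lower with 5ph-IAA at 30 °C, with a median of −1.95, against 28.1% of all tested genes called lower. At 39 °C, where the 7 snoRNP core genes were higher, all 4 were also lower, with a median of −1.23, against 22.0% of all tested genes. This is not particular to the family. Of 131 ribosomal protein genes tested, 130 were called lower at 30 °C, and 122 lower and 6 higher at 39 °C (median −1.32), with TMM scaling. RPL8A fell by 2.78 ± 0.06 and RPL8B by 1.95 ± 0.05 with 5ph-IAA at 30 °C (edgeR adjusted p = 4.3e-13 and 8.49e-13). On heat shock without 5ph-IAA they fell by 2.07 ± 0.05 and 1.34 ± 0.05. Reads of this near-identical pair are divided between them by the quantification, so the values of each copy are uncertain.

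Of the genes that carry a snoRNA in an intron, 7 of 8 fell on heat shock without 5ph-IAA, against 39.7% of all tested genes, led by NOG2 (−6.24 ± 0.08), a GTPase of large subunit assembly, and IMD4 (−3.50 ± 0.05), an enzyme of guanine nucleotide synthesis (edgeR adjusted p = 2.74e-16 and 8.67e-16). EFB1, a translation elongation factor named after its value was seen, rose by 0.38 ± 0.05. With 5ph-IAA at 30 °C 8 of 8 fell with TMM scaling, against 28.1% of all tested genes, with a median of −1.23 (6 fell and 2 rose with library totals and in log2(TPM + 1)), led by ASC1 (−2.68 ± 0.06), a protein of the small subunit, and RPL7B (−1.98 ± 0.07), whose reads may be shared with RPL7A. IMD4 also has near-identical relatives.

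Genes that share both promoter elements with the snoRNP core were compared with the other promoters. Leaving the core genes out, 326 tested genes had both PAC and RRPE letters, and 86.5% of them were lower at 39 °C without 5ph-IAA, with a median log2 fold change of −2.21. With PAC letters alone the share was 47.3% of 755 genes (median −0.17), with RRPE letters alone 56.1% of 565 genes (median −0.34), and with neither 32.3% of 4061 genes (median 0.20). In the presence of 5ph-IAA the share was 84.0% for both letters and 31.2% for neither, with medians of −1.27 and 0.12. The median interaction was 0.84 for genes with both letters and −0.06 for genes with neither. Under the other scalings, the share lower at 39 °C without 5ph-IAA ran from 84.05% to 91.1% for both letters and from 26.52% to 43.04% for neither, and with library totals without the ribosomal protein genes the median of genes with neither was −0.05. With 5ph-IAA the share ran from 84.05% to 92.64% for both letters and from 30.41% to 51.61% for neither. The median of genes with neither then ran from −0.254 to 0.092 and was above 0 only with DESeq2. The median interaction ran from 0.452 to 0.875 for both letters and from −0.421 to −0.03 for neither. Among the core genes, whose promoters all hold both, the log2 fold change ran from −3.74 to −1.51, so genes with both sets of letters differed widely among themselves.

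**Figure D5:**
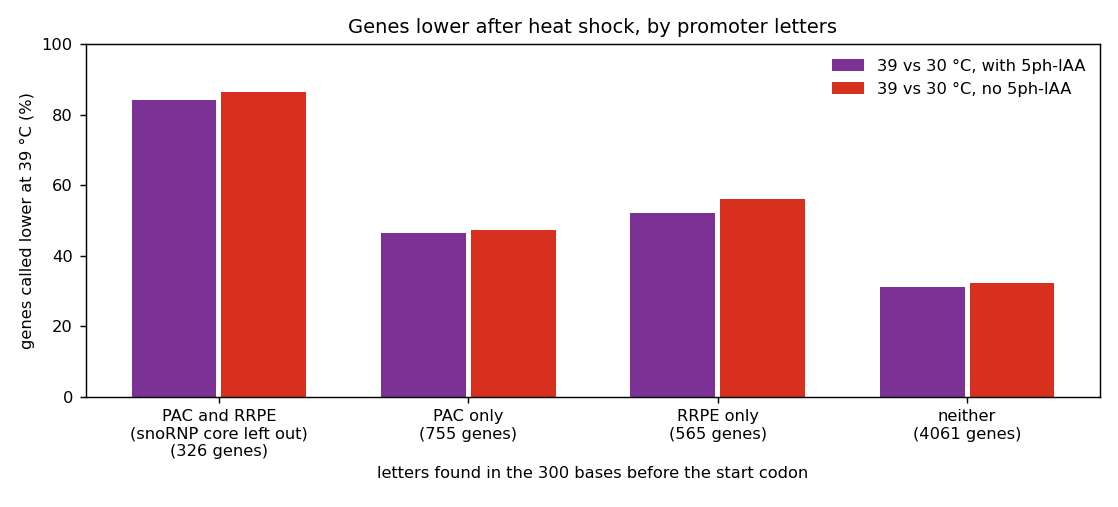
Share (%) of tested genes called lower at 39 °C (edgeR, TMM scaling) with 5ph-IAA (purple) and without it (red), by the letters found in the 300 bases before the start codon, snoRNP core genes left out. Genes with both PAC and RRPE letters stand at 84.0% and 86.5%, and genes with neither at 31.2% and 32.3%.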

How the data were processed

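Each library has a table of the authors' estimated counts and TPM over 6034 coding targets, and the submitters' processing notes name kallisto. Its version, transcript set and build were not given in the sources used here; of the 6019 targets with a coding sequence in R64, 6018 have the same length there. Per the labels' protocols the kit was TruSeq RNA v2, which selects poly-A RNA and does not mark strand, and kallisto divides reads that fit several targets.

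For testing, each deposited estimated count was rounded to a whole number and fitted with edgeR 4.0.16 in R 4.3.3 (quasi-likelihood test, TMM scaling, filterByExpr, 1 term per group, 4 residual degrees of freedom, two-sided), which kept 5734 targets; standard errors are the log2 fold change over the square root of its F statistic. DESeq2 1.42.0, limma 3.58.1 (trend) on log2(TPM + 1) and log2(TPM + 0.1), library totals with and without ribosomal protein genes, no count filter, smaller fits, a replicate block and leaving out each library were alternatives. The fit was tested on simulated counts. Libraries were grouped by their titles, temperature and replicate labels, and replicates differed by more than counting noise. Levels are deposited TPM, given as mean ± SD; log2 CPM used a prior count of 2. Promoter letters were counted over targets whose start codon is placed in R64.

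The members, lists and motifs were chosen with earlier results of these data known. The text names all core genes, the 2 called genes with the largest change per list in heat shock without 5ph-IAA and in 5ph-IAA at 30 °C, the 5 genes closest in pattern and IFH1; exceptions are marked. The intervals cover these libraries only.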

Additional observations from a re-analysis of the deposited data

Results flagged for a closer look

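The heat shock change differed between cells with and without 5ph-IAA in all 7 measured snoRNP core genes, by the interaction test of edgeR with Benjamini-Hochberg adjustment over all tested genes, of which 26% had an interaction above 0 past the threshold. On the log2 scale the treated heat shock change less the untreated one was 1.68 for NOP1, 1.27 for NOP56, 1.51 for NOP58, 0.68 for SNU13, 1.78 for CBF5, 1.38 for NHP2 and 1.11 for GAR1. Each of these genes fell less on the log2 scale with 5ph-IAA.

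Of the other genes named in the text, counting STE2 and STE3 as the only mating type markers, 27 passed the same test above 0 and 2 below. The list genes were named for large changes in heat shock without 5ph-IAA or in 5ph-IAA at 30 °C. Both changes are subtracted in the interaction, so genes named for a fall are pushed above 0. The counts are therefore no independent result. Among assembly and processing factors the values were 0.72 for SHQ1, 1.14 for BCD1, 1.63 for RNT1, 1.38 for RRP6, 0.59 for LHP1 and 0.87 for RAT1. Among modification enzymes they were 0.68 for SPB1, 2.09 for KRE33 and 1.13 for BMT6. The tri-snRNP genes SNU114 and BRR2 had 0.45 and 0.36, the ribosomal protein genes RPL8A, RPL8B, RPL30, RPS12, RPL7A and RPL7B had 1.23, 0.81, 0.63, 0.55, 0.81 and 1.26, and the snoRNA host genes ASC1, IMD4 and NOG2 had 1.00, 1.06 and 1.37. IFH1 had 0.79 and the a-cell gene STE2 had 1.17. The values were 1.40 for ELP2, 1.44 for SCW11, 1.28 for TRM8, 1.53 for RLP7 and 1.41 for NMD3, which were named for a pattern like that of the core and so had to share its direction. Those below 0 were −0.45 for PCF11 and −1.18 for STE3, an alpha-cell gene at a low level in these cells. The share of ribosomal protein genes in TPM, 10.3% at 39 °C with 5ph-IAA, 17.2% at 30 °C with it, 19.6% at 39 °C without it and 40.2% at 30 °C without it, moved with these groups, and its part in the interaction was not tested beyond the other scalings.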

How the results depend on the processing

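The calls and directions of the 7 core genes held under all 16 alternatives for heat shock without 5ph-IAA (log2 fold changes −3.99 to −1.38), heat shock with 5ph-IAA (−2.70 to −0.75) and 5ph-IAA at 39 °C (0.23 to 1.62), and under all 15 for the interaction (0.33 to 1.81). For 5ph-IAA at 30 °C, 90 of 112 values kept direction and call, 4 lost the call and 18 reversed. Members called there were 7 lower and 0 higher with TMM, 0 lower and 1 higher with library totals, and 0 lower and 7 higher with limma on TPM under both pseudocounts. Reversed values with library totals were 0.02 for NOP1, 0.093 for NOP56, 0.024 for SNU13, 0.12 for NHP2, 0.028 for BRR2, 0.05 for SHQ1 and 0.066 for SNU66. With limma on log2(TPM + 1) they were 0.27 for NOP1, 0.34 for NOP56, 0.21 for NOP58, 0.27 for SNU13, 0.20 for CBF5, 0.37 for NHP2, 0.24 for GAR1, 0.007 for BMT6, 0.26 for BRR2, 0.11 for KRE33, 0.18 for LHP1, 0.19 for NAF1, 0.20 for RAT1, 0.30 for SHQ1 and 0.30 for SNU66. With a pseudocount of 0.1 they were 0.27, 0.34, 0.21, 0.27, 0.20, 0.37, 0.24, 0.007, 0.28, 0.11, 0.18, 0.19, 0.21, 0.30 and 0.31 in the same order. The list medians that reversed there, with library totals, totals without ribosomal protein genes and limma on log2(TPM + 1), were 0.19, 0.006 and 0.44 for assembly factors, 0.20, 0.016 and 0.44 for end and cap processing and 0.39, 0.20 and 0.63 for the tri-snRNP list, which was also 0.00 with DESeq2; modification enzymes had 0.031 with library totals and 0.28 with limma. These scalings shift all genes, by 0.40 with library totals and 0.63 with log2(TPM + 1) at 30 °C.

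Counts of all genes called moved by over 1.5 times in the following cases. For 5ph-IAA at 30 °C (1614 lower and 1351 higher with TMM) they were 503 and 3962 with library totals, 832 and 2687 with totals without ribosomal protein genes, 276 and 4865 with log2(TPM + 1), and 272 and 4862 with log2(TPM + 0.1). For heat shock with 5ph-IAA, 2178 higher became 1409 and 1329 with library totals and with totals without ribosomal protein genes. For 5ph-IAA at 39 °C (1260 lower and 1292 higher) they were 709 and 2315 with library totals, 371 and 3224 with log2(TPM + 1), and 367 and 3189 with log2(TPM + 0.1). For the interaction (1315 lower and 1490 higher) they were 2550 and 908 with library totals, 2948 and 685 with log2(TPM + 1), and 2938 and 692 with log2(TPM + 0.1).

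With the replicate number as a block, 7 of 7 core genes stayed called in each comparison, and all genes called with 5ph-IAA at 30 °C were 1627 lower and 1356 higher. The labels do not say that a number marks a shared culture, and correlations of same-numbered deviations were −0.08 to 0.23, so the numbers were not taken as pairs. Limits are the 2 libraries per group, the absence of any value for NOP10 and the lack of a measure of total mRNA per cell.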
